A study of Mus musculus with 18 samples.

Results

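Colorectal carcinomas taken at 20 weeks from mice given azoxymethane and dextran sulphate sodium were compared with normal colorectal mucosa, gene by gene. The samples were chosen by their labels: 3 arrays carry the title of adenocarcinoma and 3 that of normal mucosa, 6 of the 18 arrays in the series, whose 6 groups hold 3 arrays each. Carcinoma-bearing male ICR mice, an outbred stock, were 6 weeks old at the start and were injected on day 1 with 10 mg/kg of azoxymethane (AOM), which causes colon tumours in rodents. They then drank dextran sulphate sodium (DSS), a polymer that injures the colonic epithelium, in 3 cycles: 2% from day 8 to day 14, 1.5% from day 29 to day 33, and 1.5% from day 50 to day 54. Carcinomas were collected on day 140, at week 20. Normal mucosa came from male ICR mice of the same starting age that received saline and distilled water and were sampled on day 14, at week 2. Lesion and age therefore differ together and cannot be told apart, and AOM and DSS were not given singly. High grade dysplasia (HGD) of weeks 6 and 8 (days 42 and 56, after 2 and 3 DSS cycles) is used below as a further comparison.

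This model is used to study cancer that arises in an inflamed colon. The colonic crypt is renewed from stem cells at its base, which depend on Wnt signals. Wnt signals stabilise beta-catenin, which acts with TCF and LEF factors on target genes, and several targets encode inhibitors of the pathway itself. As cells leave the base they become absorptive colonocytes, mucus-secreting goblet cells or hormone-secreting enteroendocrine cells.

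All values are log2 of the deposited signal plus 16, unless given otherwise, and differences are carcinoma minus normal mucosa, with n = 3 arrays per group. Adding 16 shrinks the fold change of dim genes. A gene was called where its Benjamini-Hochberg adjusted p from limma, a linear model with moderated variances, was under 0.05. One fit used all 18 arrays to estimate the spread (12 residual degrees of freedom) and a second used the 6 arrays alone (4 residual degrees of freedom). "Rose" and "fell" are kept for genes called in the 18-array fit.

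Of 12877 genes tested, 116 were called in the 18-array fit (0.901%), 42 of them higher (0.326%) and 74 lower (0.575%). At least a 2-fold difference was seen for 46 of these, 25 higher and 21 lower. With the 6 arrays alone, 529 genes were called (4.11%), 304 higher (2.36%) and 225 lower (1.75%), and 216 of them differed at least 2-fold, 157 higher and 59 lower. The fits shared 102 genes, which is 87.9% of the first set and 19.3% of the second. The median difference over all genes was -0.02. All 3 carcinoma arrays lay beyond all 3 normal arrays for 4052 genes (31.5%), 1856 higher (14.4%) and 2196 lower (17.1%).

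The 3 carcinomas were not equally far from normal mucosa. Over the genes tested, carcinoma replicate 1 had a Pearson correlation of 0.968 to 0.975 with the normal arrays, and of 0.959 and 0.968 with carcinoma replicates 2 and 3. Replicates 2 and 3 correlated at 0.980 with each other, and at 0.923 to 0.929 and 0.940 to 0.947 with the normal arrays. Normal arrays correlated at 0.980 to 0.985 among themselves. In carcinoma replicates 1, 2 and 3, 239, 775 and 571 genes lay at least 2-fold from the normal mean. Without carcinoma replicate 1, 287 genes were called in the 18-array fit (2.23%), 119 higher (0.924%) and 168 lower (1.3%), and 102 of the 116 genes were among them. The 2 groups alone then gave 2069 (16.1% of all genes), 987 higher (7.66%) and 1082 lower (8.4%). These shares are the background for the counts over gene lists without carcinoma replicate 1. Gapdh 3 prime minus 5 prime log2 signal, a measure of RNA integrity, was 0.07, -0.02 and -0.01 in the carcinomas and -0.05, -0.08 and 0.09 in normal mucosa. It was 1.63 in replicate 2 of low grade dysplasia of week 4, against at most 0.15 on any other array. The same measure for Actb was 1.51 there and at most 0.69 elsewhere. That array enters the spread of the 18-array fit, and its effect on the calls was not tested. General epithelial genes, which mark the labelled tissue, were bright in both groups, and their summed linear signal was 86780 to 100802 in carcinoma and 101711 to 107613 in normal mucosa over 21 genes. Of these 21 genes, 0 were called in the 18-array fit (0 at an unadjusted p under 0.05, against 2378 or 18.5% of all genes), and 1, the epithelial transcription factor gene Elf3 (-0.64), with the 6 arrays alone. With the groups alone and no carcinoma replicate 1, 6 of them were lower. Differences were below 0 for 18 of the 21 genes, with a median of -0.19. All carcinoma arrays lay below all normal arrays for 8 of the 21, against 17.1% of all genes. The SE of Elf3 was 0.37 with 18 arrays and 0.10 with 6. In bulk tissue, fewer cells of a type and less RNA per cell cannot be told apart.

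**Figure D1:**
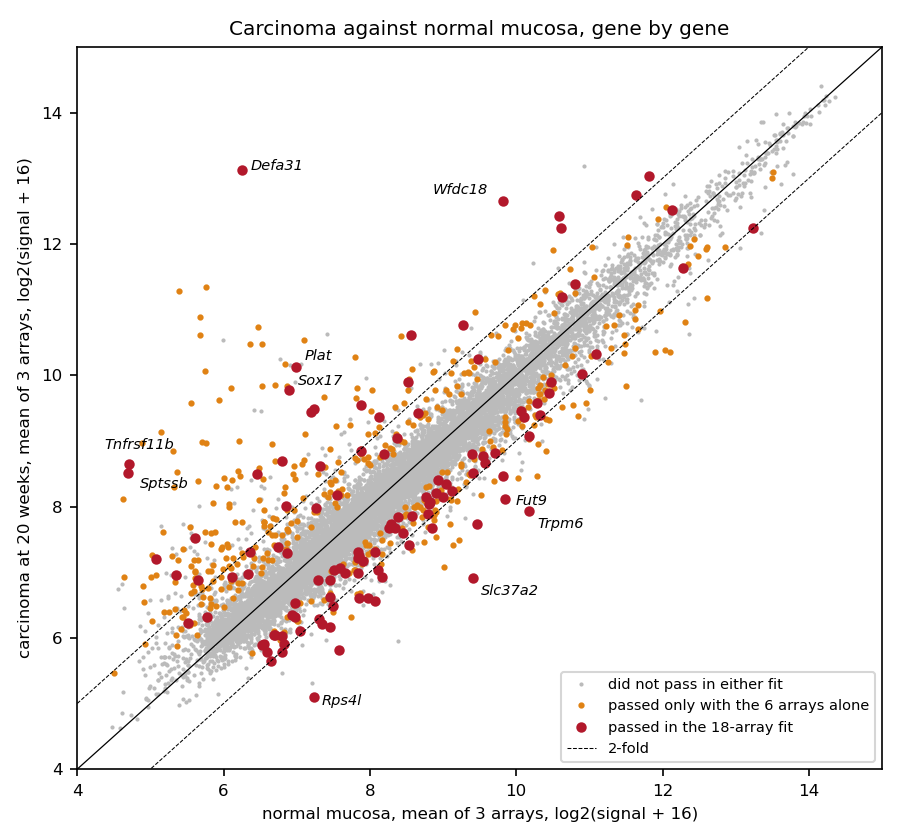
Each point is a gene, with its mean over 3 carcinoma arrays on the vertical axis and its mean over 3 normal arrays on the horizontal axis, both as log2(signal + 16). Red points are the 116 genes called in the 18-array fit, orange points those called only with the 6 arrays alone, and dashed lines mark a 2-fold difference.

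Sptssb and Sox17 were among the largest increases. Sptssb, which encodes a small subunit of serine palmitoyltransferase, the enzyme that starts sphingolipid synthesis, gave 7.88, 8.80 and 8.86 in carcinoma replicates 1, 2 and 3, against 4.59, 4.77 and 4.70 in normal mucosa. No carcinoma array came near a normal one. Sptssb rose by 3.83 ± 0.45 (SE; 14.2-fold; adjusted p = 0.00228 with 18 arrays and 0.00262 with 6), and its other probe set gave 1.77. Sox17, a transcription factor gene of endoderm and endothelium, gave 8.90, 10.53 and 9.92 in carcinoma and 7.0, 6.76 and 6.94 in normal mucosa. It rose by 2.88 ± 0.34 (adjusted p = 0.00228 and 0.0189). Its second probe set gave 1.19, and the probe set used may bind related transcripts. Both genes were called in the 18-array fit whichever single carcinoma or normal array was left out. Arrays of the other groups were not left out.

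The promoter of Sptssb is shown because this gene was called whichever single carcinoma or normal array was left out. RefSeq (GRCm38.p6) places this window of 250 bases before and 50 after the start at chr3:69859845-69860144 on the minus strand. Beside it stand the windows of Wif1 (chr10:121033754-121034053, plus strand) and Sp5 (chr2:70474673-70474972, plus strand), which are Wnt pathway genes described further on. Capitals mark CTTTGAT, a core TCF/LEF motif, searched on both strands as CTTTGAT and ATCAAAG.
Sptssb: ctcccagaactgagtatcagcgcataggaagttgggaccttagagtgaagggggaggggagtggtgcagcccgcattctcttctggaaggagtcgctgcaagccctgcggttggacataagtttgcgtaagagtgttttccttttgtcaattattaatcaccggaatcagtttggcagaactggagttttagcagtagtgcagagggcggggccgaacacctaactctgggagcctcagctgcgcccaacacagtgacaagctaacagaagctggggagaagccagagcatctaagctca
Wif1: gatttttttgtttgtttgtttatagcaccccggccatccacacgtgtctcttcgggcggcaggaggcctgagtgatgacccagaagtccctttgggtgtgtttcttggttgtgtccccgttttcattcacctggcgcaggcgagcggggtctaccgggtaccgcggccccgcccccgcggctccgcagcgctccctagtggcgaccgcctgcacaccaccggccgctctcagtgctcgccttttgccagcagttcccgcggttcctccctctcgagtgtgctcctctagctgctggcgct
Sp5: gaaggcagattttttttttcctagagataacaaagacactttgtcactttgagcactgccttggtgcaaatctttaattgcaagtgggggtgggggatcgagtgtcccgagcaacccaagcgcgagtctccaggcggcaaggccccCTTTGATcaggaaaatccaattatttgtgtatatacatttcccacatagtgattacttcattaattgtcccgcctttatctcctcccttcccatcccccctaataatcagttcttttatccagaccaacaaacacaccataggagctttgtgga

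The Sp5 window holds 1 match, 104 bases before the start, and the windows of Sptssb and Wif1 hold none of these letters. Such a match is a description of the sequence, not a binding site. The motif stood in 4.29% of 27025 promoter windows of the same length, in 3.16% of the 10334 tested genes with a window, in 3 of 32 genes called higher (9.38%) and in 1 of 62 called lower (1.61%). A core SOX motif, ACAATG or CATTGT, stood in 14.3% of all windows, in 9.03% of those of tested genes, in 4 of 32 higher (12.5%) and in 5 of 62 lower (8.06%). The strings of the 2 motifs were searched separately, and overlap between matches was allowed.

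Tnfrsf11b encodes osteoprotegerin, a decoy receptor of the TNF receptor family. It gave 7.79, 9.63 and 8.54 in carcinoma and 4.72, 4.60 and 4.81 in normal mucosa, an increase of 3.94 ± 0.80 (SE; 15.4-fold; adjusted p = 0.039 and 0.00927). Plat, the tissue plasminogen activator gene, gave 8.78, 11.60 and 10.01 in carcinoma against 6.96, 7.18 and 6.84 in normal mucosa. Plat rose by 3.14 ± 0.62 (adjusted p = 0.0353 and 0.043), and its other probe set gave 0.75. In both genes carcinoma replicate 1 was the lowest carcinoma and still lay above every normal array. Defa31, an alpha-defensin gene, had the largest increase among called genes, 6.87 ± 1.27 (adjusted p = 0.0282 and 0.0026), although its probe set may detect related defensins as well. It gave 12.24, 14.20 and 12.93 in carcinoma, against 6.19, 6.25 and 6.31 in normal mucosa.

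Wfdc18, a gene of the whey acidic protein family, gave 12.17, 13.16 and 12.64 in carcinoma and 10.21, 9.24 and 10.01 in normal mucosa, and rose by 2.84 ± 0.54. The interferon-induced transmembrane protein genes Ifitm1 and Ifitm3 rose by 1.83 ± 0.39 and 1.21 ± 0.23. The insulin-like growth factor binding protein genes Igfbp5 and Igfbp4 rose by 1.63 ± 0.29 and 1.10 ± 0.24. Igfbp5 gave 12.29, 12.30 and 12.14 in carcinoma and 10.64, 10.79 and 10.41 in normal mucosa. The other probe set of Igfbp5 gave only 0.14, and Wfdc18 and Igfbp5 rest on probe sets that may bind related transcripts. Ceacam12, of the carcinoembryonic antigen family, rose by 2.14 ± 0.47, the protocadherin gene Pcdhb9 by 1.91 ± 0.42, and Ecscr, an endothelial surface protein gene, by 1.66 ± 0.34.

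Myl7, Tubb2b, Marcksl1 and Cirbp were also among the largest increases. Myl7, a myosin light chain gene best known from the heart atrium, gave 9.34, 9.47 and 9.50 in carcinoma and 7.07, 6.95 and 7.55 in normal mucosa, and rose by 2.25 ± 0.42. The tubulin gene Tubb2b rose by 2.04 ± 0.45 and Marcksl1, which encodes an actin-regulating substrate of protein kinase C, by 2.06 ± 0.42 on a probe set that may bind related transcripts. Cirbp, the cold-inducible RNA-binding protein gene, gave 8.65, 8.90 and 8.52 in carcinoma and 6.53, 6.76 and 7.10 in normal mucosa. It rose by 1.89 ± 0.33 (adjusted p = 0.0219 and 0.0066).

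**Figure D2:**
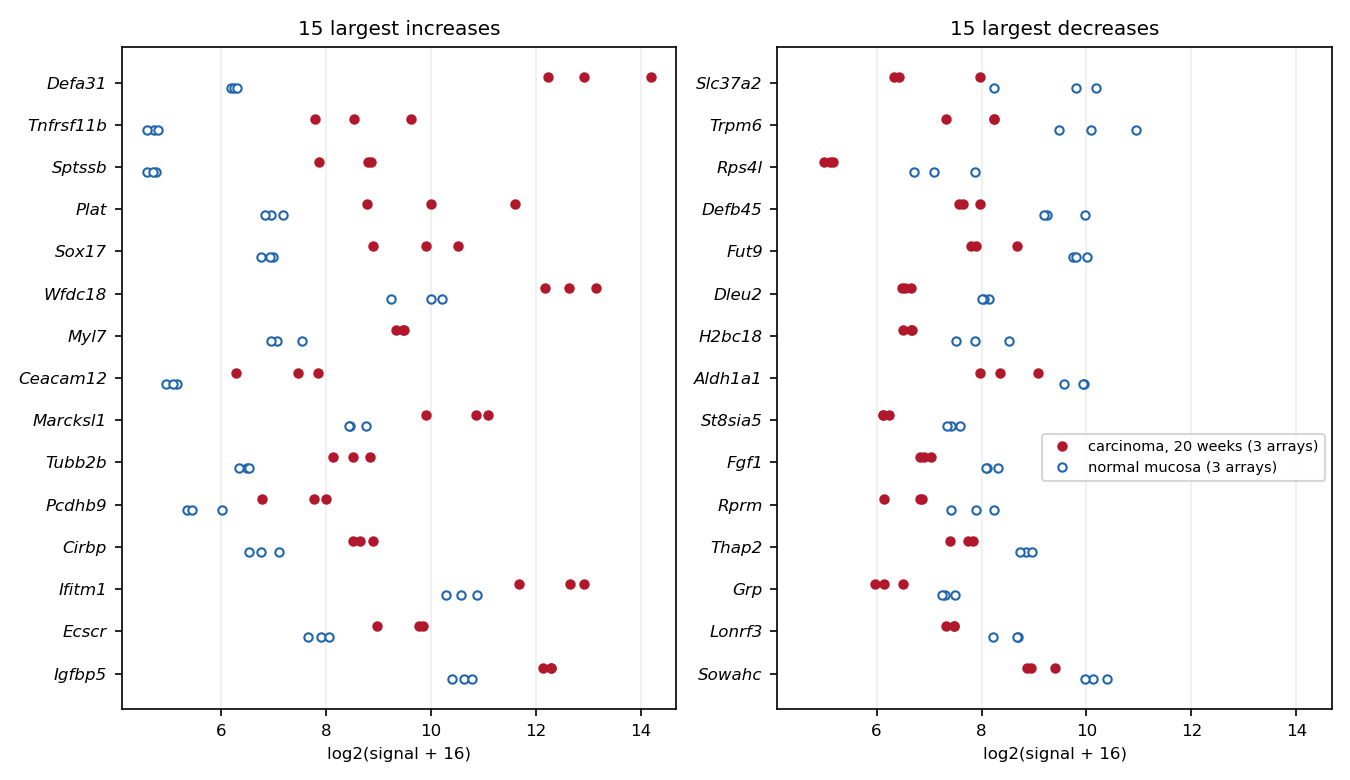
The 15 largest increases (left) and 15 largest decreases (right) among named genes called in the 18-array fit. Filled red points are the 3 carcinoma arrays and open blue points the 3 normal arrays, as log2(signal + 16) on the horizontal axis, and in each gene shown all arrays of one group lie beyond all arrays of the other.

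Among the largest decreases were those of Slc37a2, Trpm6 and Fut9. Slc37a2, a sugar phosphate exchanger gene, gave 7.97, 6.33 and 6.43 in carcinoma against 10.19, 9.80 and 8.23 in normal mucosa. It fell by 2.50 ± 0.47 (SE; adjusted p = 0.0303) and missed the threshold with the 6 arrays alone (adjusted p = 0.0682). Carcinoma replicate 1 and normal replicate 3 nearly met. Trpm6, the magnesium channel gene of the colon, gave 8.23, 8.23 and 7.33 in carcinoma and 10.09, 10.95 and 9.47 in normal mucosa, and fell by 2.24 ± 0.44 (its other probe set gave -1.06). Fut9, a fucosyltransferase gene that builds the Lewis x sugar, gave 8.67, 7.80 and 7.89 in carcinoma and 9.74, 10.01 and 9.80 in normal mucosa. It fell by 1.73 ± 0.28 (adjusted p = 0.0144 and 0.0205), and its other probe set gave -2.04.

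Fgf1, the acidic fibroblast growth factor gene, gave 7.04, 6.82 and 6.91 in carcinoma and 8.31, 8.11 and 8.08 in normal mucosa, a fall of 1.24 ± 0.16 (adjusted p = 0.00491 and 0.00648). The other probe sets of Fgf1 gave -0.75 and -0.51. Ppara, the nuclear receptor gene that drives fatty acid oxidation, gave 5.99, 5.74 and 5.95 in carcinoma against 6.49, 6.52 and 6.54 in normal mucosa, and fell by 0.63 ± 0.09 (adjusted p = 0.00491 and 0.0272). Aldh1a1 and Rdh5, enzymes of retinoid metabolism, fell by 1.35 ± 0.27 and 0.78 ± 0.10. Fgf1, Ppara and Rdh5 were called whichever single carcinoma or normal array was left out. So were the inter-alpha-trypsin inhibitor chain gene Itih2 (-1.02), the myosin light chain gene Myl6 (-0.68) and the unnamed gene 5033404E19Rik (-1.77). These 6 decreases and the increases of Sptssb and Sox17 are the 8 genes of the 116 for which that held, and of 37 called genes taken by the naming rule it held for 4. Genes were kept only if 3 arrays lay above the table median, and Ppara and Rdh5 did so through normal mucosa alone. On all other arrays they reached at most 6.02 and 6.11, under array medians of 6.16 to 6.21. Itih2 and 5033404E19Rik also needed the normal arrays to be kept. This filter favoured a fall in these genes.

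Further decreases took in a beta-defensin gene, Defb45 (-1.74 ± 0.31), a sialyltransferase gene, St8sia5 (-1.29 ± 0.20), a histone gene, H2bc18 (-1.36 ± 0.28), and Rprm, a p53-induced cell cycle inhibitor gene (-1.24 ± 0.27). Rprm missed the threshold with the 6 arrays alone (adjusted p = 0.0502). Thap2, Lonrf3 and Sowahc fell by 1.18 ± 0.19, 1.11 ± 0.19 and 1.10 ± 0.24, although the second probe sets of Thap2 and Lonrf3 gave -0.14 and -0.22. The neuropeptide genes Grp, gastrin-releasing peptide, and Nmu, neuromedin U, fell by 1.15 ± 0.25 and 1.00 ± 0.22. Nmu was chosen after its values were seen. Rps4l, a ribosomal protein S4-like gene, gave 5.17, 5.12 and 4.99 in carcinoma and 7.88, 7.09 and 6.71 in normal mucosa, and fell by 2.13 ± 0.39 (adjusted p = 0.0267 and 0.0189).

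Dleu2 is a long non-coding RNA gene, and its transcript hosts the microRNAs miR-15a and miR-16-1. It gave 6.65, 6.48 and 6.54 in carcinoma and 8.15, 8.05 and 8.00 in normal mucosa, so the groups were well apart and each was even. Dleu2 fell by 1.51 ± 0.26 (SE; adjusted p = 0.0174 and 0.0026), and its other probe set gave -0.93. The arrays did not measure the mature microRNAs. Their main arms are shown because they share 1 seed (bases 2 to 8, in capitals), and RefSeq (GRCm38.p6) places them within the host gene on the minus strand, at chr14:61631936-61631957 for miR-16-5p and chr14:61632075-61632096 for miR-15a-5p.
mmu-miR-16-5p: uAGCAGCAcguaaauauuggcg
mmu-miR-15a-5p: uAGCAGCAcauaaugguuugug

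Genes were next described by 46 lists of pathways and cell types, of which 850 members were measured. In the 18-array fit 16 of these were called (1.88%, against 0.901% of all genes), 12 higher and 4 lower. With the 6 arrays alone 98 were called (11.5%, against 4.11% of all genes), 73 higher and 25 lower. Lists and members were chosen with earlier results of these data known, so these shares are not an independent test of the lists. Genes named below that passed only with the 6 arrays were chosen after their values were seen.

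**Figure D3:**
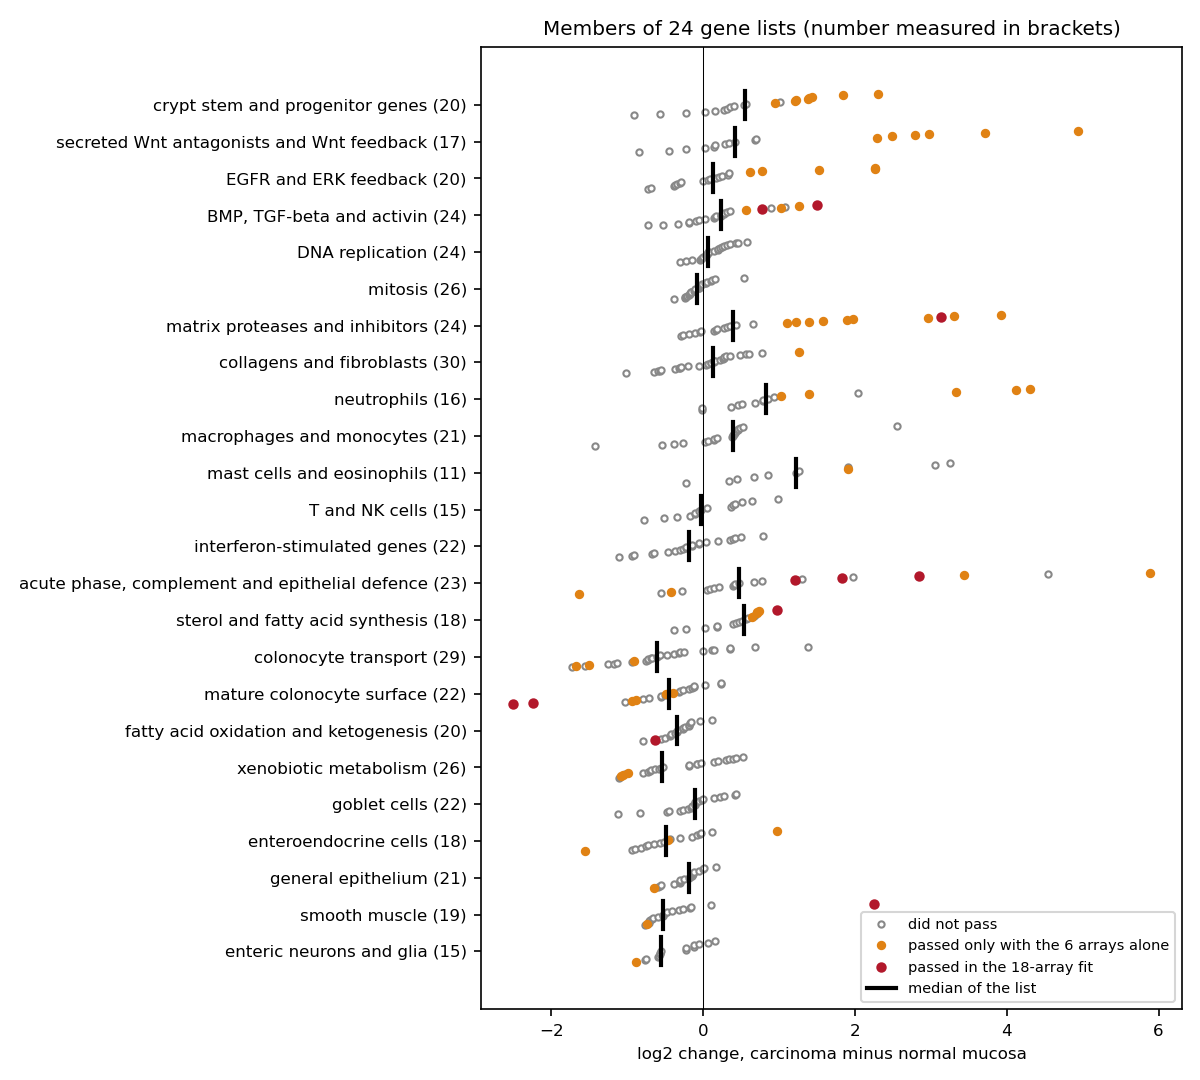
Log2 change, carcinoma minus normal mucosa, of each measured member of 24 gene lists (points), with the median of the list as a black bar. Red points passed in the 18-array fit and orange points only with the 6 arrays alone. Among these 24 lists the points farthest to the right are Reg3b (5.89, acute phase), Wif1 (4.94, Wnt antagonists), Reg3g (4.54, acute phase) and the neutrophil genes S100a9 (4.31) and S100a8 (4.12).

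Wnt feedback genes had list means of 1.05, 1.30 and 1.26 above normal mucosa in carcinoma replicates 1, 2 and 3, and their calls differed between the fits. Of 17 measured Wnt antagonists and feedback genes, 0 were called in the 18-array fit (7 at an unadjusted p under 0.05, 41.2%, against 18.5% of all genes), and 6 were higher and 0 lower with the 6 arrays alone. The list median was 0.42, with 14 genes above 0 and 3 below, Tcf7l1 (-0.84), Tcf7l2 (-0.45) and Nkd2 (-0.22). Without carcinoma replicate 1, 0 of the 17 were called in the 18-array fit, and 8 were higher and 1 lower with the groups alone. Wif1, a secreted Wnt-binding inhibitor gene, gave 9.56, 10.98 and 11.32 in carcinoma, against 5.73, 5.52 and 5.78 in normal mucosa. The difference was 4.94, with an SE of 1.25 from 18 arrays (adjusted p = 0.0709) and of 0.42 from 6 (adjusted p = 0.00582). An SE from 18 arrays also takes in the spread of the groups not compared here. For Wif1 the SD was 0.94 in carcinoma, 0.14 in normal mucosa, 0.37 in inflamed mucosa and 0.10 in HGD of week 6. It was 2.13 in low grade dysplasia of week 4 and 3.38 in HGD of week 8. Notum, a secreted enzyme gene that inactivates Wnt proteins, gave 8.45, 9.38 and 9.15 in carcinoma and 6.14, 6.11 and 6.38 in normal mucosa (adjusted p = 0.158 and 0.00582). The other genes that passed with the 6 arrays were Apcdd1 (3.71), an inhibitor at the receptor, Sp5 (2.97), a transcription factor gene and direct Wnt target, Nkd1 (2.49), an inhibitor inside the cell, and Dkk2 (2.29), a secreted antagonist of the co-receptor.

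Of 20 crypt stem and progenitor genes, 0 were called in the 18-array fit (8 at an unadjusted p under 0.05, or 40.0%, against 18.5% of all genes) and 8 were higher with the 6 arrays alone. The median was 0.55. Axin2, a negative regulator and widely used Wnt target, gave 9.18, 10.17 and 9.63 in carcinoma and 7.85, 7.86 and 7.72 in normal mucosa (difference 1.85; adjusted p = 0.182 and 0.0187). The others were the receptor gene Tnfrsf19 (2.30), the genes Znrf3 (1.44) and Rnf43 (1.38), whose ligases remove Wnt receptors, Sox4 (1.40), Msi1 (1.22), Cd44 (1.21) and Smoc2 (0.95). Cd44, the hyaluronan receptor gene, lay just outside the threshold in the 18-array fit (adjusted p = 0.0519). Lgr5 differed by 1.01 and did not pass in either fit (adjusted p = 0.588 and 0.0598). Differences were above 0 for 17 of the 20 and below for 3, Aqp4 (-0.91), Lrig1 (-0.57) and Rgmb (-0.22). Without carcinoma replicate 1, 0 stem and progenitor genes were higher and 1 lower in the 18-array fit, and 9 were higher and 1 lower with the groups alone. Of 20 Wnt ligand and receptor genes, Wnt10a (1.56) and Wnt6 (1.06) passed with the 6 arrays alone and 0 in the 18-array fit (1 at an unadjusted p under 0.05). Of the 20, 4 were higher and 2 lower with the groups alone when carcinoma replicate 1 was left out. In the 9 genes of these Wnt and stem lists that passed with the 6 arrays and had a promoter window, the TCF/LEF motif stood in 2, Sp5 and Tnfrsf19. This is 22.2%, against 3.16% of tested genes with a window. The SOX motif stood in 0 of the 9, against 9.03%. These genes are few and were picked by their change in these data, so no conclusion is drawn from the shares.

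Among developmental factors, Sox17 was the 1 of 22 Sox, Hox and lineage genes called in the 18-array fit. Prox1, a homeobox gene of lymphatic endothelium that is also a Wnt target in colon tumours, gave 8.19, 9.64 and 9.13 in carcinoma and 5.94, 5.58 and 5.61 in normal mucosa (adjusted p = 0.134 and 0.00927). Hoxa9 (0.83) and Hoxb13 (-0.73) passed with the 6 arrays in opposite directions. Of the 22, 5 were higher and 5 lower with the groups alone when carcinoma replicate 1 was left out. In the BMP, TGF-beta and activin list, 2 of 24 rose, Id2 by 1.50 ± 0.32, an inhibitor of differentiation gene, and the receptor gene Tgfbr1 by 0.77 ± 0.14. The median of that list was 0.24. Of 20 EGFR and ERK feedback genes, 0 were called in the 18-array fit (7 at an unadjusted p under 0.05) and 5 were higher with the 6 arrays, led by the phosphatase gene Dusp4 and the transcription factor gene Etv5 (both 2.26).

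Proliferation genes gave no calls. Of 24 DNA replication genes and 26 mitosis genes, 0 were called by limma in either fit, with medians of 0.07 and -0.08. At an unadjusted p under 0.05 there were 0 and 2 in the 18-array fit. The proliferation marker Mki67 gave 10.25, 9.95 and 9.88 in carcinoma, against 10.11, 10.35 and 10.09 in normal mucosa, so the groups overlapped. Myc, a growth-promoting transcription factor gene, gave 7.74, 8.67 and 8.04 in carcinoma and 7.76, 7.42 and 7.50 in normal mucosa (0.59 ± 0.19, adjusted p = 0.134). Of 26 Myc and ribosome biogenesis genes 0 were called in either fit (7 at an unadjusted p under 0.05, or 26.9%, against 18.5% of all genes), with a median of 0.25. Of the 26, 3 were higher in the 18-array fit without carcinoma replicate 1, and 4 were higher and 1 lower with the groups alone. Cdkn2a, a cell cycle inhibitor gene, was the 1 of 19 p53 and senescence genes that passed with the 6 arrays (1.64), and 0 passed with 18 (6 at an unadjusted p under 0.05). Of the 19, 2 were higher in the 18-array fit without carcinoma replicate 1, and 3 were higher and 1 lower with the groups alone.

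Matrix protease genes gave calls in 1 direction. Of 24 proteases and inhibitors, Plat was the 1 that rose in the 18-array fit, and 10 were higher and 0 lower with the 6 arrays alone, with a median of 0.40. Mmp10, the stromelysin-2 gene, gave 8.76, 10.61 and 10.13 in carcinoma and 6.64, 6.25 and 6.68 in normal mucosa (difference 3.31; adjusted p = 0.0519 and 0.0205). Mmp7, the matrilysin gene, gave 10.04, 10.68 and 10.69 in carcinoma and 5.86, 7.62 and 6.12 in normal mucosa (adjusted p = 0.111 and 0.0129). Mmp13, a collagenase gene, differed by 2.96, and Mmp3, Mmp12, Mmp9 and Mmp14 by 1.97, 1.90, 1.40 and 1.11. An unadjusted p under 0.05 in the 18-array fit was found for 9 of the 24 (37.5%, against 18.5% of all genes). Of 30 collagen and fibroblast genes, 1 passed with the 6 arrays, the basement membrane collagen gene Col18a1 (1.26), with 9.76, 9.78 and 9.78 in carcinoma and 8.62, 8.50 and 8.45 in normal mucosa. It did not pass with 18 arrays (adjusted p = 0.0519). When carcinoma replicate 1 was left out, 1 of the 30 was higher and 10 were lower with the groups alone, and 1 was lower in the 18-array fit.

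Inflammatory genes differed in size among the carcinomas. Of 16 neutrophil markers, 0 were called in the 18-array fit and 5 were higher with the 6 arrays alone (4 at an unadjusted p under 0.05 in the 18-array fit). Their mean above normal was 0.61, 2.09 and 1.34 in carcinoma replicates 1, 2 and 3, and their summed linear signal ran from 1813 to 12476 in carcinoma and from 891 to 918 in normal mucosa. The defining markers Mmp8, Ngp and Camp were dim on all 6 arrays. S100a8, a calprotectin subunit gene, gave 8.38, 12.00 and 11.08 in carcinoma, against 6.52, 5.85 and 6.73 in normal mucosa (adjusted p = 0.124 and 0.0454). The neutrophil chemoattractant genes Cxcl5 and Cxcl2 differed by 4.08 and 3.98, and were the 2 of 27 cytokine genes that passed with the 6 arrays alone. With carcinoma replicate 1 left out, 10 of the 16 neutrophil genes were higher with the groups alone, and 11 of the 27 cytokine genes were higher and 2 lower. That fit called 7.66% of all genes higher and 8.4% lower, so the 2 lower genes are near the share of all genes. Mast cell and eosinophil markers had a median of 1.22 and per-carcinoma means of 0.47, 1.71 and 1.83, with 1 of 11 passing with the 6 arrays, the IgE receptor chain gene Ms4a2 (1.91), and 5 without carcinoma replicate 1. Mcpt2, a mucosal mast cell protease gene, gave 7.90, 11.08 and 11.49 in carcinoma and 7.72, 7.14 and 5.86 in normal mucosa. It did not pass in either fit (adjusted p = 0.141 and 0.0944). Mast cell and eosinophil markers with an unadjusted p under 0.05 in the 18-array fit were 7 of 11 (63.6%, against 18.5% of all genes).

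Other immune lists gave no calls in either fit by limma: 0 of 21 macrophage, 0 of 15 T and NK cell, 0 of 19 B and plasma cell, 0 of 18 antigen presentation and 0 of 22 interferon-stimulated genes. At an unadjusted p under 0.05 in the 18-array fit these lists held 6, 0, 0, 0 and 1 genes. With carcinoma replicate 1 left out, they gave 3, 3, 4, 3 and 0 higher genes with the groups alone, and 1 macrophage gene was lower. Their medians ran from -0.18 for interferon-stimulated genes to 0.40 for macrophages. Of 23 acute phase and epithelial defence genes, 3 rose in the 18-array fit, Wfdc18, Ifitm1 and Ifitm3, and 5 were higher and 2 lower with the 6 arrays alone (11 and 3 with the groups alone and no carcinoma replicate 1). Reg3b, an antibacterial lectin gene, gave 9.19, 12.50 and 12.15 in carcinoma and 4.83, 4.74 and 6.61 in normal mucosa (adjusted p = 0.131 and 0.0271). Saa3, an acute phase protein gene, differed by 3.44 (adjusted p = 0.12 and 0.00798), and Wfdc2 by -1.64 (adjusted p = 0.135 and 0.014). An unadjusted p under 0.05 in the 18-array fit was found for 11 of the 23 (47.8%, against 18.5% of all genes). Ptgs2, the inducible cyclooxygenase gene, gave 6.46, 7.81 and 8.08 in carcinoma and 7.09, 6.87 and 7.37 in normal mucosa, and the groups overlapped.

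**Figure D4:**
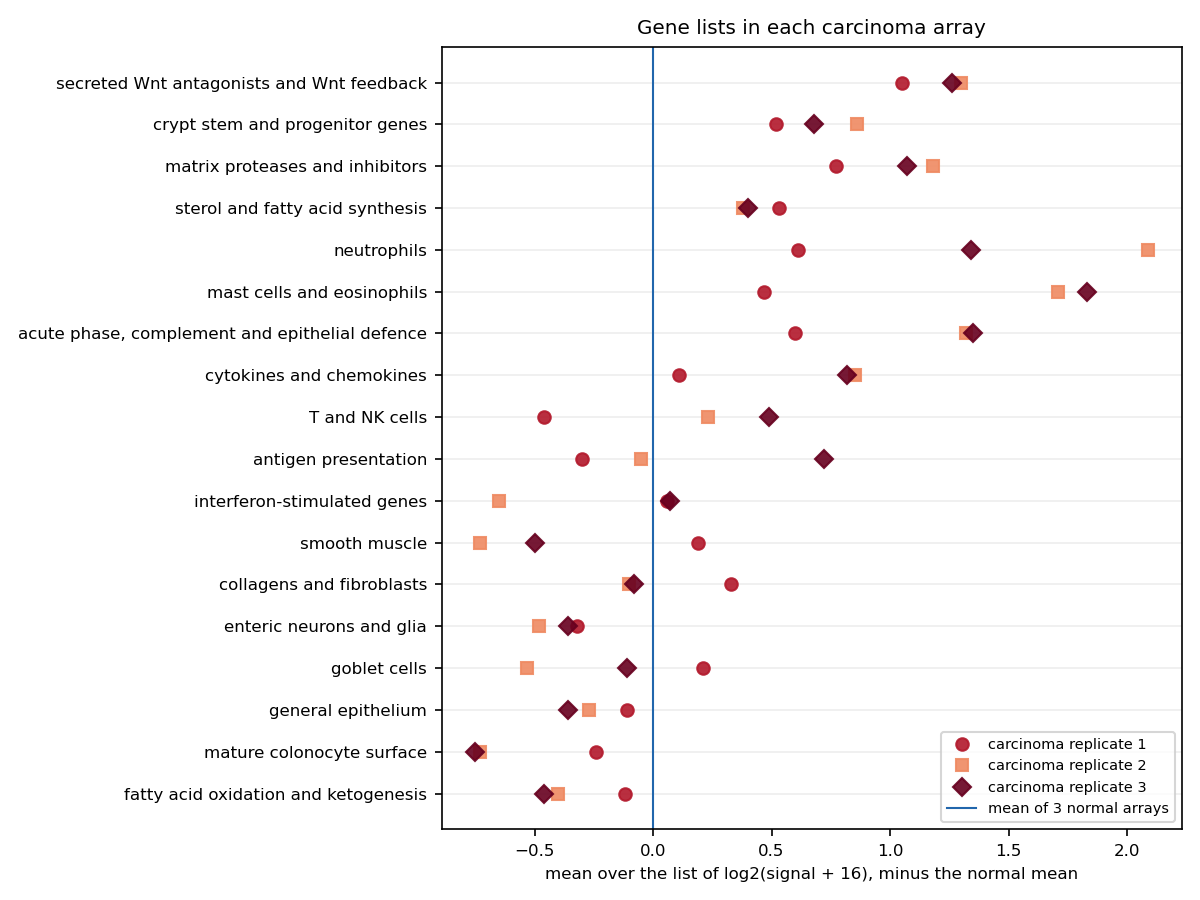
Mean of log2(signal + 16) over the members of 18 gene lists in each carcinoma array, minus the mean of the 3 normal arrays (blue line). Neutrophil genes lay at 0.61, 2.09 and 1.34 and smooth muscle genes at 0.19, -0.73 and -0.50 in carcinoma replicates 1, 2 and 3.

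Some genes of absorptive function were lower in carcinoma, while most members of their lists were not called in either fit. Of 22 mature colonocyte surface genes, 2 fell in the 18-array fit, Slc37a2 and Trpm6. With the 6 arrays alone 5 were lower, in a fit that called 1.75% of all genes lower, and the list median was -0.44. At an unadjusted p under 0.05 in the 18-array fit there were 2 (9.09%), against 18.5% of all genes. Of 29 colonocyte transport genes, 0 were called in the 18-array fit (5 at an unadjusted p under 0.05, or 17.2%). The list median was -0.61, and 3 were lower with the 6 arrays alone. These were Clca4a (-1.50), a chloride channel regulator family gene, Atp12a (-1.67), the colonic proton-potassium pump gene, and the carbonic anhydrase gene Car2 (-0.91). Car4, a surface carbonic anhydrase gene, gave 10.81, 11.67 and 11.04 in carcinoma, against 12.20, 12.90 and 12.18 in normal mucosa, and did not pass (-1.25 ± 1.41, adjusted p = 0.678 and 0.052). The SD of Car4 was 0.44 in carcinoma, 0.41 in normal mucosa and 0.17 in HGD of week 6. In inflamed mucosa, low grade dysplasia and HGD of week 8, which also enter that SE, it was 1.53, 2.93 and 3.23. Without carcinoma replicate 1, 2 of the 29 transport genes were higher and 16 lower with the groups alone, and 11 of the 22 surface genes were lower, in a fit that called 8.4% of all genes lower.

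Fatty acid oxidation genes had a median of -0.34, with 19 of 20 below 0, and Ppara was the 1 that fell in both fits. As given above, Ppara was kept by the filter on signal only through its normal arrays. In the 18-array fit 9 of the 20 had an unadjusted p under 0.05 (45.0%, against 18.5% of all genes). Of the 20, 5 were lower in the 18-array fit without carcinoma replicate 1, and 10 with the groups alone. Xenobiotic metabolism genes had a median of -0.54, and 3 of 26 were lower with the 6 arrays alone, the glutathione transferase genes Gstm3 (-1.08) and Gstm1 (-0.99) and the sulphotransferase gene Sult1b1 (-1.05). The 6-array fit called 1.75% of all genes lower. In the 18-array fit 3 of the 26 had an unadjusted p under 0.05 (11.5%), against 18.5% of all genes. The SE of Gstm3, Gstm1 and Sult1b1 was 0.33, 0.30 and 0.90 with 18 arrays and 0.21, 0.16 and 0.17 with 6. Of the 26, 1 was higher and 11 were lower with the groups alone when carcinoma replicate 1 was left out. Sterol and fatty acid synthesis went the other way, with 16 of 18 genes above 0 and a median of 0.54. An unadjusted p under 0.05 in the 18-array fit was found for 13 of the 18 (72.2%, against 18.5% of all genes). Cyp51, a demethylase of cholesterol synthesis, rose by 0.97 ± 0.16 (adjusted p = 0.0149 and 0.0209), with 8.96, 8.99 and 8.61 in carcinoma and 7.75, 7.89 and 8.00 in normal mucosa. Srebf1 (0.74), Fdps (0.71), Idi1 (0.71) and Sqle (0.64) passed with the 6 arrays alone, and the mean of the list was 0.53, 0.38 and 0.40 above normal in the 3 carcinomas.

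Secretory lineage lists differed in their calls. Of 22 goblet cell genes 0 were called in either fit (1 at an unadjusted p under 0.05), with a median of -0.11, and Muc2, the main mucin gene of colonic mucus, gave 13.94, 13.18 and 13.45 in carcinoma and 13.36, 13.03 and 13.51 in normal mucosa. Enteroendocrine genes had a median of -0.48, with 0 of 18 called in the 18-array fit (7 at an unadjusted p under 0.05) and 1 higher and 2 lower with the 6 arrays. Insl5, a hormone gene of colonic L cells, gave 10.73, 9.93 and 10.41 in carcinoma and 12.01, 11.92 and 11.78 in normal mucosa (-1.55; adjusted p = 0.551 and 0.0187), whereas the neurotensin gene Nts was higher (0.98, adjusted p = 0.105 and 0.0294). Without carcinoma replicate 1, 5 goblet cell genes were lower with the groups alone, as were 8 enteroendocrine genes, with 1 enteroendocrine gene higher. That fit called 8.4% of all genes lower and 7.66% higher. Of 9 Paneth cell genes, Defa31 rose in the 18-array fit, and Pnliprp2 (4.26) and Mmp7 (3.93) passed with the 6 arrays alone. The lysozyme gene Lyz1 differed by 0.50 and Ang4 by 0.28. An unadjusted p under 0.05 in the 18-array fit was found for 4 of the 9 (44.4%, against 18.5% of all genes). Pnliprp1, a pancreatic lipase-related gene, differed by 5.21 (adjusted p = 0.11 and 0.00927), and the other 5 measured acinar genes ran from -0.72 for Cela1 to 0.12 for Cela3b.

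Metallothionein genes differed in sign. Among 19 metallothionein and mineral handling genes, 10 had an unadjusted p under 0.05 in the 18-array fit (52.6%, against 18.5% of all genes). Mt1 fell by 0.99 ± 0.20, on a probe set that may bind related transcripts, and its other probe set gave 0.14. Mt4, known from stratified epithelia, gave 10.17, 12.05 and 11.81 in carcinoma and 5.17, 6.29 and 5.81 in normal mucosa (5.59; adjusted p = 0.0662 and 0.0066). Mt3 differed by 2.34 and Mt2 by -0.68, and both passed with the 6 arrays alone. Of the stromal lists, smooth muscle had 17 of 19 genes below 0 and a median of -0.53. Its mean was 0.19, -0.73 and -0.50 against normal in the 3 carcinomas, and Myl7 was the 1 called in the 18-array fit. Without carcinoma replicate 1, 1 of the 19 was higher and 12 were lower with the groups alone, against 8.4% of all genes lower. Enteric neuron and glia markers had a median of -0.56, with 0 of 15 called in the 18-array fit (6 at an unadjusted p under 0.05) and Stmn2 (-0.89) lower with the 6 arrays. The part of muscle and nerve content in the other differences was not tested.

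Carcinoma was then set against high grade dysplasia, to ask whether the later lesion differs from the earlier one. By limma, 0 genes were called against HGD of week 6 and 0 against HGD of week 8, in both the 18-array fit and the fits of the 6 arrays concerned. At an unadjusted p under 0.05 there were 580 and 1422 genes with 18 arrays, and 1014 and 925 with 6. The smallest adjusted p with 18 arrays was 0.67 against week 6 and 0.195 against week 8. Sptssb differed from both HGD groups by -0.12 ± 0.45, and Plat by 0.12 ± 0.62 and 0.23 ± 0.62. A p that misses the threshold does not show that the lesions are alike.

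Sox17, Irx4 and Rps4l were among the genes with carcinoma values outside the range of all other arrays, although their differences from HGD did not pass. They were chosen after their values were seen. The carcinoma arrays of Sox17 began at 8.90, and the highest of the other 15 arrays, in HGD of week 6, was 8.35. Sox17 differed by 1.69 ± 0.34 from HGD of week 6 (adjusted p = 0.67) and by 2.09 ± 0.34 from that of week 8 (adjusted p = 0.195). Irx4, an Iroquois homeobox gene, rose by 1.60 ± 0.24 against normal mucosa, and gave 6.36, 7.58 and 6.91 in carcinoma, above a highest value of 6.25 elsewhere. Irx4 was kept by the filter on signal only through its carcinoma arrays. Rps4l was at most 5.17 in carcinoma and at least 5.53 elsewhere. Other called genes did the same, such as D6Wsu163e, at most 7.12 in carcinoma and at least 7.27 elsewhere. Ube2d2a was at least 11.34 in carcinoma and at most 11.3 elsewhere. How many of all genes had such values was not counted.

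**Figure D5:**
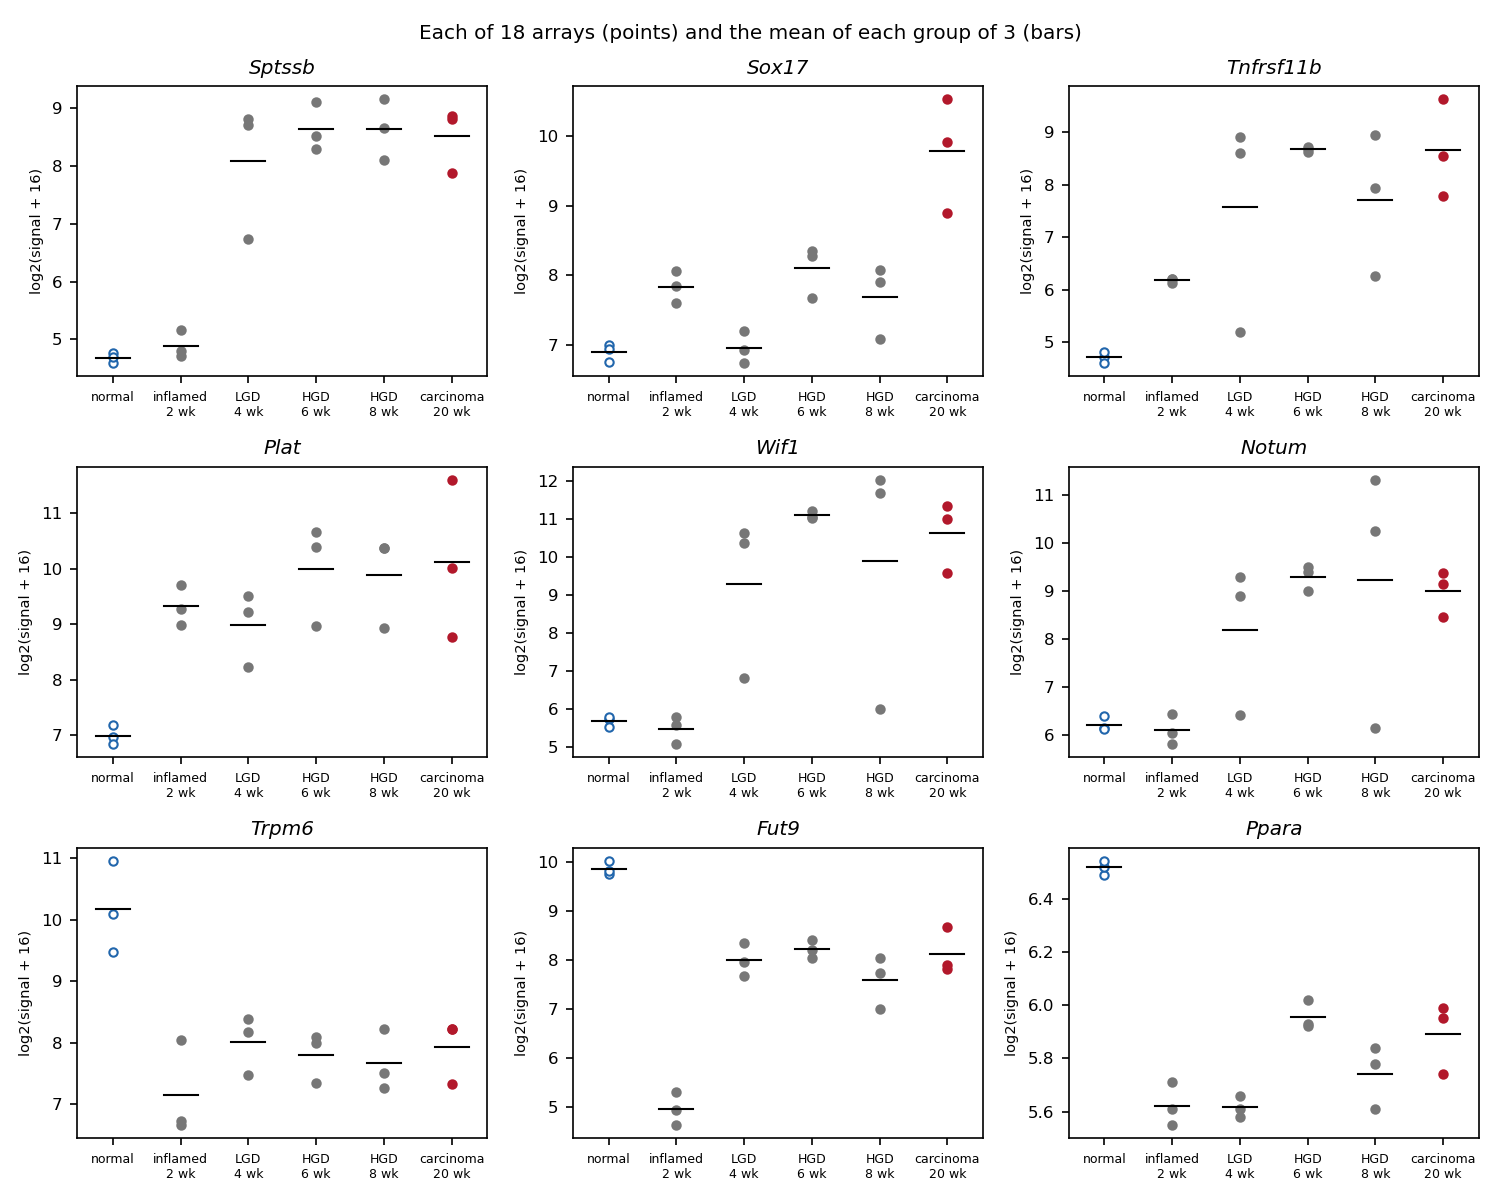
Log2(signal + 16) of 9 genes on each of the 18 arrays (points), with the mean of each group of 3 as a bar, in order of stage. The vertical axes differ and do not start at 0. Sptssb was near the normal level in inflamed mucosa and higher in the mean of every later group, Sox17 was highest in carcinoma, and Wif1 and Notum varied widely within the group at 8 weeks.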

How the data were processed

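Total RNA from mouse colorectum was hybridised as biotin-labelled cRNA to Affymetrix GeneChip arrays covering the mouse genome, 1 per sample, per the labels' protocols. The deposited values are intensity, a linear signal per probe set. MAS5 stands in the submitters' processing notes. The sources used here do not give its purpose, version or options. No scaling was added because array medians ran from 55.7 to 57.8 only. Signals ran from 3.39 to 24945. The labels call the arrays of a group biological replicates without naming the animals, and their small number limits the precision.

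Of 45101 probe sets, 64 are controls, 34945 have 1 gene in the platform annotation, 932 several and 9160 none, and 34741 were matched by gene identifier, which changed 0 symbols. Probe sets above the table median on at least 3 of the 18 arrays were kept, and the one with the highest mean stood for its gene. This gave 12877 genes, 1459 of them on probe sets that may bind related transcripts. Values were tested as log2(signal + 16) in R 4.3.3 with limma 3.58.1 (lmFit, eBayes with an intensity trend), 2-sided, with Benjamini-Hochberg adjustment over all genes of a comparison. The script was tested on simulated data. Members, lists and tests were chosen with earlier results of these data known.

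Named genes are the 15 largest changes each way among called genes whose groups do not overlap, up to 4 called members of each list or else the one with the smallest p, and Axin2, Ptgs2, Myc, Car4, Muc2 and Mki67. Genes without a proper symbol were passed over. The same rule was applied to the 6-array fit after the data were seen. RefSeq tables (GRCm38.p6) gave promoters and microRNAs. Sequences of Sox17, Tnfrsf11b, Plat, Notum and Apcdd1 were not used here. Alternatives in filter, scaling, probe set choice, spread, arrays and pairing are in the closing section.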

Additional observations from a re-analysis of the deposited data

Results flagged for a closer look

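Probe sets outside the gene tests also differed between carcinoma and normal mucosa. Of 2760 that passed the filter and have no gene in the annotation, 44 were called by limma in the 18-array fit, 18 higher and 26 lower. Of 621 that are paired with several genes, 18 were called, 7 higher and 11 lower. Among the genes tested, 116 of 12877 were called (0.901%), and p was adjusted within each of these sets. Both kinds of probe set drew attention because they lie outside the gene tests, and no single gene is given for them. Among those with no gene, 2 differed by 7.82 ± 1.42 and 6.89 ± 1.34 (SE; adjusted p = 0.0178 and 0.0202), more than any called gene.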

How the results depend on the processing

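The count of genes called between carcinoma and normal mucosa depended on which arrays entered. Against 116 genes, it was 71 with a stricter filter at the 75th percentile, 529 with the arrays of the 2 groups alone and 2916 with array weights, whose estimation stopped before it converged. Leaving out 1 array gave 8 to 287 genes with 18 arrays (287 without carcinoma replicate 1, 11 without carcinoma replicate 2, 22 without carcinoma replicate 3, and 8, 9 and 49 without normal replicates 1, 2 and 3). With the 6 arrays, an alternative chosen after seeing the data, it gave 31 to 2069 (2069, 101 and 59 without carcinoma replicates 1, 2 and 3, and 32, 40 and 31 without normal replicates 1, 2 and 3). With the replicate number as a block the count was 44 with 18 arrays and 102 with 6, but the labels share only a number, and same-numbered carcinoma and normal arrays had correlations of -0.10, -0.03 and -0.01 in their deviations. Higher genes made up 36.2% of calls with 18 arrays and 57.5% with 6. The remaining alternatives in pseudocount, filter, scaling, probe set choice and trend gave 90 to 168 genes. Carcinoma against HGD gave 0 genes at both weeks except with array weights (9 at week 6 and 1816 at week 8) or with 1 array left out (0 to 1 at week 6 and 0 to 2 at week 8). Of 134 named genes followed, 132 kept their direction under every alternative run. The exceptions were Mt1, at 0.14 without probe sets that may bind related transcripts, and the erythroid gene Alas2, at 0.00 with a pseudocount of 64 or median centring, at 0.10 without carcinoma replicate 3 and at 0.02 without normal replicate 3. The cause of these shifts was not tested.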

Other observations

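Clock genes, on which the report gives nothing, had 0 of 17 calls by limma in either fit (11 at an unadjusted p under 0.05 in the 18-array fit, or 64.7%, against 18.5% of all genes). Of the 17, 7 were above 0 and 10 below, with a median of -0.10. Dbp, Nr1d1 and Ciart, clock output and repressor genes, differed by 1.11, 1.21 and 0.69, while the activator gene Arntl differed by -1.20 and the repressor genes Per2 and Cry1 by -0.82 each. The hour of sampling is not given in the labels. Genes picked here were chosen after their values were seen. Other single genes passed with the 6 arrays alone: the zinc transporter gene Slc30a2, with 8.74, 10.32 and 9.68 in carcinoma and 5.43, 5.57 and 5.67 in normal mucosa, the nuclear receptor gene Nr5a2 (-1.74), the inflammasome sensor gene Nlrp6 (-1.58) and the monooxygenase gene Fmo2 (-1.81). Tight junction genes Cldn4 (1.74) and Cldn8 (-1.40) went in opposite directions with the 6 arrays, and neither passed with 18 (adjusted p = 0.12 and 0.41).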
